A study of Homo sapiens with 9 samples.

Results

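TAF5L and 9 partner genes of the SAGA and TFIID complexes were followed across the arrays of lamin-depleted DLD1 cells. The partners were TAF6L, TAF5, TAF6, TAF9, TAF10, TAF12, SUPT3H, TRRAP and TADA3L. Members were found by the gene name printed for each probe in the scanner files, which gave 17 probes for these 10 genes out of 50238 probes under 31033 gene names. TAF5L was chosen on measured values of these same arrays, because 1 of its probes had the largest rise in both knockdowns. Its values are therefore described and carry no test. The other 9 genes were chosen for their known place in the complexes, and their 15 probes were tested.

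DLD1 is a human colorectal cancer cell line. The 9 cultures were 3 untreated controls, 3 with Lamin A/C Kd and 3 with Lamin B2 Kd, where Kd is a knockdown by 100 nM siRNA for 48 h. Each culture was read on 1 single-color Agilent array, on which a change in all cells and a change in some of them cannot be told apart. According to their labels the controls had no siRNA, and none received a control siRNA, so transfection and lamin loss cannot be told apart in either comparison, and both comparisons share the same 3 controls. Lamins build the meshwork beneath the nuclear envelope, and siRNA lowers them in a dividing population for a limited time without removing the gene.

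SAGA is a coactivator complex that acetylates histones and removes ubiquitin from histone H2B at active promoters. TFIID is the general transcription factor that brings TBP to promoters of RNA polymerase II. The complexes share the histone-fold subunits TAF9, TAF10 and TAF12, while SAGA carries TAF5L and TAF6L in the places that their paralogs TAF5 and TAF6 take in TFIID.

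The arrays carried 2 probes of TAF5L, each 60 bases long and each listed against a different RefSeq transcript of the gene. The first 30 bases of each are shown 5′ to 3′ because the results turn on how this pair differs. No base is in capitals, since the longest run the pair had in common was 5 bases.
TAF5L probe 1: tcctggcactggttttgatacttggaattt
TAF5L probe 2: tgagatgatagaaagtacaaaatcactatg
The longest run that either probe had in common with any of the other 50236 probes, on either strand, was 14 bases. For probe 1 that run was found in a probe of GFM1 and in one named AK129982, and for probe 2 in a probe of PSMB1. The files list all probes as unmapped, so no position on the arrays' genome build is given. In the RefSeq table of GRCh38.p14 both transcripts belong to TAF5L, on chromosome 1.

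Levels are given as the log2 of the processed intensity minus the median of the array. All 17 probes were marked well above background on all 9 arrays, no member spot was an outlier, and no spot was saturated. Across arrays, 65.6 to 74.1% of spots were well above background. Each targeted gene was lowest in its own knockdown. On the pair of LMNA probes the Lamin A/C Kd arrays read 4.84 to 5.14 and 3.39 to 3.87, against 8.79 to 8.91 and 7.29 to 7.48 in controls. On the LMNB2 probe the Lamin B2 Kd arrays read 3.10 to 3.48, against 5.44 to 5.74 in controls. The Lamin A/C Kd arrays read 5.11 to 5.31 on the LMNB2 probe, also below every control. The Lamin B2 Kd arrays read 7.97 to 8.83 and 6.29 to 7.37 on the LMNA probes, which overlapped the controls. Each cell type marker was scored by its best probe. Of 10 colon epithelial markers, 8 were well above background on all 9 arrays: EPCAM, CDH1, KRT8, KRT18, CDX2, VIL1, KRT20 and LGALS4. The mean control levels of KRT20 and LGALS4 were only -1.40 and 0.14. CEACAM5 was well above background on 1 array and CDX1 on 7. By the same score, 3 of 5 blood markers and 2 of 8 fibroblast and endothelial markers passed on all 9 arrays. PTPRC, COL1A1 and CDH5 passed on 2 arrays each and LUM on 0. CD3E, CD14, PECAM1 and VWF passed on all 9, though PECAM1 and VWF each had another probe that passed on 0. Lamin B2 Kd replicate 3 was alone on a second slide. It held the lowest of the 9 values for 45.7% of all probes tested in that knockdown and for 9 of the 15 partner probes.

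TAF5L probe 1 was low in every control and high in every knockdown array. The control arrays read -0.09, -0.16 and -0.45, with intensities of 77.4, 63.7 and 52.5. In Lamin A/C Kd the same probe read 3.43, 2.98 and 2.67, with intensities of 764, 496 and 421. In Lamin B2 Kd it read 3.85, 2.21 and 2.38, with intensities of 939, 351 and 426. The groups did not overlap: the lowest knockdown array stood 2.76 log2 units above the highest control with Lamin A/C Kd and 2.30 with Lamin B2 Kd. Group means were -0.23 ± 0.19 in controls, 3.03 ± 0.38 with Lamin A/C Kd and 2.81 ± 0.90 with Lamin B2 Kd (SD, n = 3). The difference from control was thus 3.26 log2 units (9.59-fold) with Lamin A/C Kd and 3.05 (8.28-fold) with Lamin B2 Kd. With normexp background correction these differences were smaller, at 2.28 and 2.19. Where both groups were well above background and did not overlap, the next largest rises were HOXB8 at 3.04 in Lamin A/C Kd and AK098270 at 2.92 in Lamin B2 Kd. Both lay just outside the rule that chose TAF5L. Lamin B2 Kd replicate 1 gave the highest value, and without it the difference in that knockdown was 2.53.

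TAF5L probe 2 did not follow. Controls read -0.18, -0.17 and -0.03, Lamin A/C Kd arrays -0.30, -0.33 and -0.39, and Lamin B2 Kd arrays -0.06, -0.05 and 0.18. Its intensities lay between 50.2 and 92.9 on all 9 arrays. The mean difference from control was -0.21 in Lamin A/C Kd, where every knockdown array lay below every control, and 0.15 in Lamin B2 Kd, where the groups overlapped. The differences of the pair therefore stood 3.47 log2 units apart with Lamin A/C Kd and 2.90 with Lamin B2 Kd. The authors' table joins both probes in 1 row, and that row differed from control by 2.32 and 2.21. Whether the rise on probe 1 came from a TAF5L transcript or from another RNA was not tested. Only 1 probe is listed against each transcript, and the probes' positions are not given. The sequence of probe 1 was compared with those of other probes, not with transcripts.

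**Figure D1:**
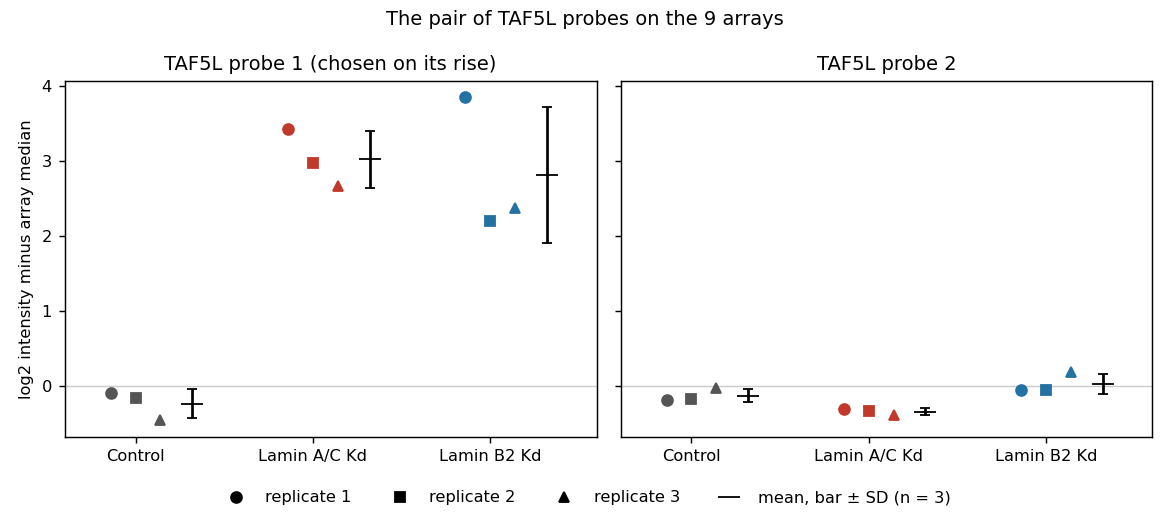
Log2 intensity minus the array median (y axis) of both TAF5L probes in each group (x axis), with a marker per replicate and a bar for the mean ± SD (n = 3). Probe 1 lies between -0.45 and -0.09 in controls and between 2.21 and 3.85 in the knockdowns, while probe 2 stays between -0.39 and 0.18 on all 9 arrays.

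No partner probe passed a threshold for a rise beside TAF5L probe 1. By the criterion of a 2-fold change with an unadjusted p under 0.05 in limma's moderated test, 0 of the 15 partner probes were called in Lamin A/C Kd, where 2.31% of all 33131 probes tested were called. The count was also 0 of 15 in Lamin B2 Kd, where 1.98% of 33535 probes were called. At shares this small, a count of 0 of 15 does not set the partners apart from probes in general. At an unadjusted p under 0.05 with no fold criterion, 4 partner probes were lower and 0 higher in Lamin A/C Kd, beside 15.7% and 8.27% of all probes. These 4 were every TAF5 probe and the TAF10 probe. In Lamin B2 Kd, 8 were lower and 0 higher, beside 19.2% and 4.38%. These 8 were TAF5 probes 2 and 3, SUPT3H probe 2, both TADA3L probes and those of TAF6L, TAF12 and TRRAP. Probes of the same gene are not independent, so these counts are not counts of genes. With the Benjamini-Hochberg adjusted p over all probes, 1 partner probe was lower in each knockdown, TAF5 probe 1 with Lamin A/C Kd and TAF12 with Lamin B2 Kd, and 0 were higher. The same criterion called 6.01% of all probes lower and 2.94% higher with Lamin A/C Kd, and 3.62% lower and 0.462% higher with Lamin B2 Kd.

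The partner probes differed from control by -0.68 to 0.10 in Lamin A/C Kd, with a median of -0.18, and by -0.85 to 0.11 in Lamin B2 Kd, with a median of -0.31. The median over all probes tested was -0.05 and -0.14. A shift by the 75th percentile of each array in place of the median moved these 2 medians to 0.02 and 0.06, so small differences are read against them. In Lamin A/C Kd, 10 of 15 partner probes had every knockdown array below every control, as did 25.8% of all probes, and 1 had every array above, as did 15.2%. These 10 were every TAF5 and TADA3L probe, TAF9 probes 2 and 3, and the probes of TAF10, TAF12 and TRRAP. In Lamin B2 Kd, 9 of 15 had every array below, beside 26.1% of all probes, and 0 had every array above, beside 5.83%. These 9 were every TAF5 and TADA3L probe, SUPT3H probe 2, and the probes of TAF6L, TAF12 and TRRAP. Several probes of 1 gene are counted here too. Without Lamin B2 Kd replicate 3 the median partner difference in that knockdown was -0.21, and that of all probes -0.06.

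**Figure D2:**
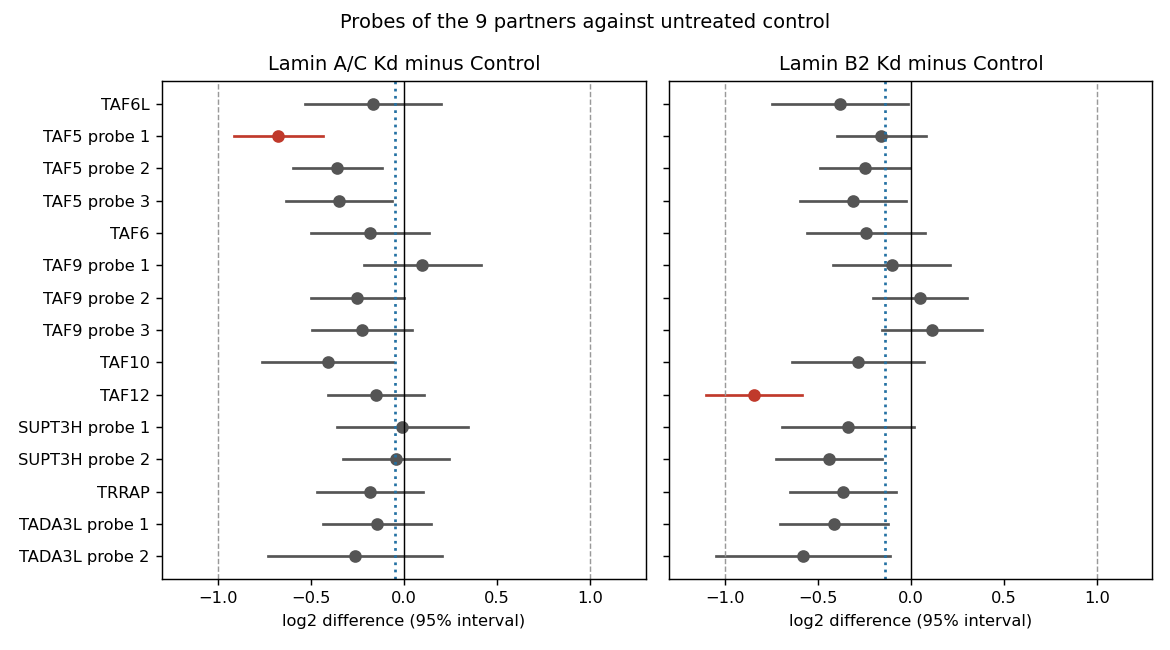
Log2 difference from untreated control (x axis) of the 15 probes of the 9 partners (y axis), left for Lamin A/C Kd and right for Lamin B2 Kd, with 95% intervals from limma. Red marks an adjusted p under 0.05, dashed lines mark 2-fold, and the dotted blue line is the median of all probes tested (-0.05 and -0.14). TAF5 probe 1 on the left and TAF12 on the right are the probes in red.

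TAF6L takes the place of TAF6 in the SAGA core beside TAF5L. Its probe read -0.06, 0.08 and -0.01 in controls, -0.17, -0.35 and 0.04 with Lamin A/C Kd and -0.22, -0.22 and -0.69 with Lamin B2 Kd. The Lamin A/C Kd arrays overlapped the controls, and all 3 Lamin B2 Kd arrays lay below them. The differences were -0.16 ± 0.16 (SE; adjusted p = 0.62) and -0.38 ± 0.16 (adjusted p = 0.20), neither past the threshold. Without Lamin B2 Kd replicate 3 the latter was -0.22. The 95% intervals ran from -0.53 to 0.20 and from -0.75 to -0.01, so neither held a rise of the size seen on TAF5L probe 1.

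SUPT3H is a histone-fold subunit of the SAGA core. Its pair of probes differed from control by -0.01 ± 0.16 and -0.04 ± 0.13 (SE) in Lamin A/C Kd, with arrays that overlapped the controls. With Lamin B2 Kd they differed by -0.34 ± 0.16 and -0.44 ± 0.13, with adjusted p of 0.23 and 0.087. Probe 2 read -0.05, -0.27 and -0.32 in controls and -0.52, -0.73 and -0.70 in Lamin B2 Kd, so its groups did not overlap, while those of probe 1 did. The SUPT3H probes thus gave differences of like size with Lamin B2 Kd.

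TADA3L, now named TADA3, belongs to the acetyltransferase module of SAGA and of the related ATAC complex. Probe 1 read 7.48, 7.47 and 7.64 in controls, 7.32, 7.38 and 7.46 with Lamin A/C Kd and 7.27, 7.18 and 6.90 with Lamin B2 Kd. Probe 2 read 3.31, 3.35 and 3.39 in controls, 3.09, 2.97 and 3.20 with Lamin A/C Kd and 3.05, 3.03 and 2.23 with Lamin B2 Kd. On both probes every knockdown array was below every control, and Lamin B2 Kd replicate 3 was the lowest. The Lamin A/C Kd differences were -0.14 ± 0.13 and -0.27 ± 0.21 (SE; adjusted p = 0.58 and 0.51), and those of Lamin B2 Kd -0.41 ± 0.13 and -0.58 ± 0.21 (adjusted p = 0.11 and 0.14). Without Lamin B2 Kd replicate 3 the Lamin B2 Kd differences were -0.30 and -0.31.

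TRRAP is the large scaffold through which SAGA and the TIP60 complex bind activators. It read 5.45, 5.41 and 5.48 in controls, 5.30, 5.16 and 5.33 with Lamin A/C Kd and 5.23, 5.15 and 4.86 with Lamin B2 Kd. Every knockdown array was below every control, by a mean of -0.18 ± 0.13 (SE; adjusted p = 0.44) and -0.36 ± 0.13 (adjusted p = 0.14).

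TAF5, the WD40-repeat scaffold of TFIID and paralog of TAF5L, was below control in Lamin A/C Kd, as were most partner probes. Probe 1 read 1.72, 1.85 and 1.76 in controls and 1.15, 0.98 and 1.16 in Lamin A/C Kd, and it fell by 0.68 ± 0.11 (SE; adjusted p = 0.0076), a 1.60-fold decrease. Probe 2 read 4.51, 4.53 and 4.60 in controls and 4.10, 4.18 and 4.28 in Lamin A/C Kd, a difference of -0.36 ± 0.11 (adjusted p = 0.073). Probe 3 read 4.20, 4.11 and 4.27 against 3.78, 3.90 and 3.85, a difference of -0.35 ± 0.13 (adjusted p = 0.13). All 3 probes had every Lamin A/C Kd array below every control, and only probe 1 passed the adjusted threshold. Of all probes tested, 6.01% were lower by that threshold. The result of probe 1 passed under 17 of 18 alternatives (adjusted p from 0.0022 to 0.18), and the exception was the authors' table. That table joins the TAF5 probes with 4 others named HsapiAL137373, whose own differences in Lamin A/C Kd were -0.34 to -0.41.

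In Lamin B2 Kd the TAF5 probes read 1.65, 1.61 and 1.59 on probe 1, 4.37, 4.32 and 4.22 on probe 2, and 4.07, 3.89 and 3.68 on probe 3. On each TAF5 probe every Lamin B2 Kd array lay below every control here too. The differences from control were -0.16, -0.25 and -0.31, with adjusted p of 0.37, 0.21 and 0.18. The direct comparison of the knockdowns on probe 1 gave -0.52 ± 0.11 for Lamin A/C Kd minus Lamin B2 Kd (adjusted p = 0.012), while probes 2 and 3 differed by -0.11 (adjusted p = 0.52) and -0.04 (adjusted p = 0.86). TAF6, the paralog of TAF6L, read 6.48, 6.35 and 6.56 in controls, 6.14, 6.38 and 6.32 with Lamin A/C Kd and 6.31, 6.38 and 5.97 with Lamin B2 Kd. Its groups overlapped, with differences of -0.18 ± 0.14 (adjusted p = 0.50) and -0.24 ± 0.14 (adjusted p = 0.31). The Lamin B2 Kd difference of TAF6 was -0.12 without replicate 3 and -0.0097 with quantile normalization.

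**Figure D3:**
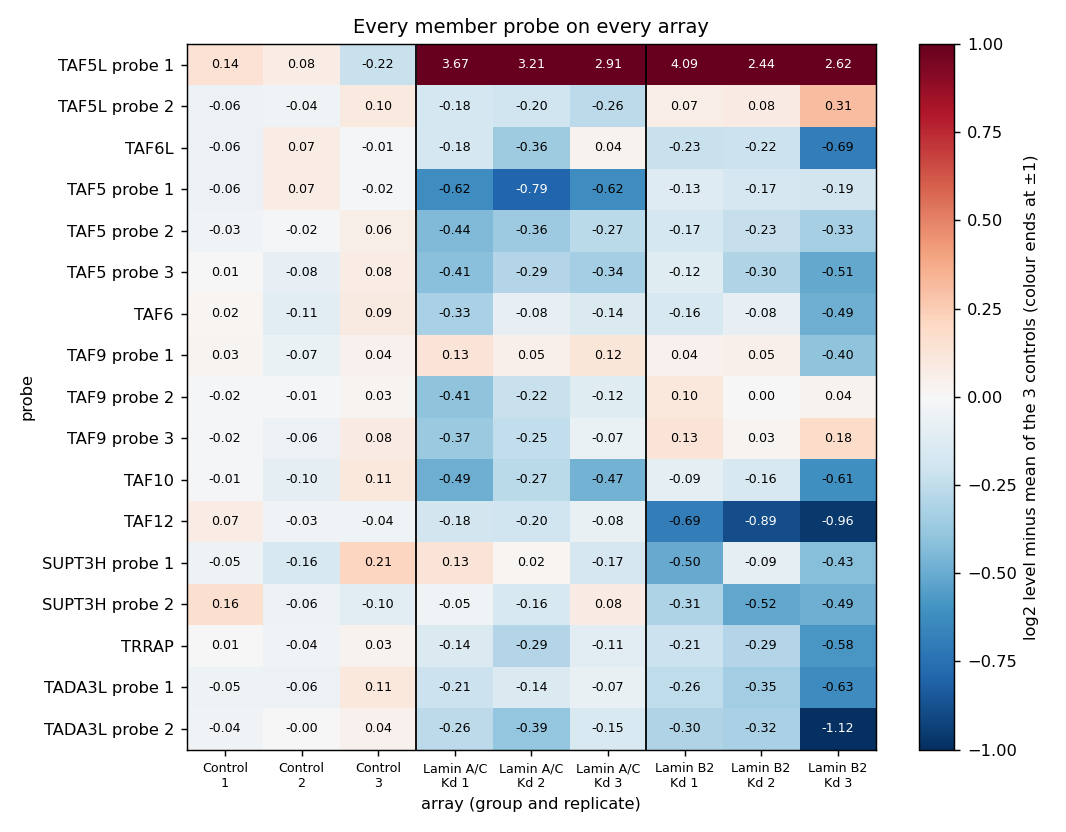
Log2 level minus the mean of the 3 controls for each of the 17 member probes (rows) on each array (columns), with colors that end at 1 in either direction. TAF5L probe 1 is the top row, above 2.4 on all 6 knockdown arrays, and the TAF12 row is below -0.6 on all 3 Lamin B2 Kd arrays.

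TAF12, shared by TFIID and SAGA, where it forms a histone-fold pair with TAF4 or TADA1, was the partner with the largest difference. It read 5.65, 5.55 and 5.54 in controls, 5.40, 5.38 and 5.50 with Lamin A/C Kd and 4.89, 4.69 and 4.62 with Lamin B2 Kd. All 3 Lamin B2 Kd arrays lay below all other arrays. TAF12 fell by 0.85 ± 0.11 (SE; adjusted p = 0.010) in Lamin B2 Kd, a 1.80-fold decrease that was -0.71 relative to the median of all probes. In Lamin A/C Kd the difference was -0.15 ± 0.11 (adjusted p = 0.48), and the knockdowns differed from each other by 0.69 ± 0.11 (adjusted p = 0.0052). The Lamin B2 Kd result passed under 14 of 18 alternatives (adjusted p from 0.0012 to 0.068). Leaving out control replicate 1, 2 or 3 gave adjusted p of 0.068, 0.052 and 0.064, and a fit on the 2 groups alone gave 0.063. Without Lamin B2 Kd replicate 3 the difference was -0.79.

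TAF10, another histone-fold subunit of both complexes, read 6.44, 6.35 and 6.55 in controls, 5.95, 6.18 and 5.97 with Lamin A/C Kd and 6.36, 6.29 and 5.84 with Lamin B2 Kd. The Lamin A/C Kd arrays lay below the controls, at -0.41 ± 0.16 (SE; adjusted p = 0.15). The Lamin B2 Kd arrays overlapped the controls, at -0.29 ± 0.16 (adjusted p = 0.29), and without replicate 3 the difference was -0.12.

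TAF9 pairs with TAF6 or TAF6L through its histone fold. Of its 3 probes, the transcript listed for probe 1 is now assigned to AK6, an adenylate kinase gene whose annotated span overlaps TAF9 in the RefSeq table of GRCh38.p14. Probes 2 and 3 are listed against TAF9 itself and overlap each other. The 30 bases of each around the shared stretch are shown 5′ to 3′, with the 27 bases they have in common in capitals.
TAF9 probe 2: CTTGGTCTTGAATTCATTGTACTGATAtta
TAF9 probe 3: taCTTGGTCTTGAATTCATTGTACTGATAc
Probes 2 and 3 thus overlap over 27 of the 60 bases of each and are not independent of each other. Probe 2 read 6.06, 6.07 and 6.10 in controls, 5.67, 5.85 and 5.95 with Lamin A/C Kd and 6.18, 6.08 and 6.11 with Lamin B2 Kd. Probe 3 read 5.47, 5.43 and 5.57, then 5.12, 5.24 and 5.42, then 5.62, 5.52 and 5.67 in the same groups. On both, the Lamin A/C Kd arrays lay below the controls and the Lamin B2 Kd arrays overlapped them. Probe 1 read 6.34, 6.24 and 6.35 in controls, 6.44, 6.36 and 6.43 with Lamin A/C Kd and 6.36, 6.36 and 5.91 with Lamin B2 Kd. In Lamin A/C Kd the differences of probes 1, 2 and 3 were 0.10, -0.25 and -0.23, and those with Lamin B2 Kd -0.10, 0.05 and 0.11. The signs of the AK6-listed probe were thus opposite to those of the TAF9 probes, but no difference passed the test (adjusted p from 0.21 to 0.75 with Lamin A/C Kd and from 0.56 to 0.80 with Lamin B2 Kd). Its negative sign in Lamin B2 Kd rested on replicate 3: without that array the difference was 0.05, and it was also above 0 with the 75th percentile (0.09) and with quantile normalization (0.12).

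The knockdowns were also compared with each other directly. By the 2-fold criterion in limma's test, 0 of 15 partner probes were called, beside 4.06% of 33134 probes. At an unadjusted p under 0.05, 3 were lower and 2 higher in Lamin A/C Kd than in Lamin B2 Kd, beside 10.8% and 18.8% of all probes. The lower ones were TAF5 probe 1 and the overlapping TAF9 probes 2 and 3, and the higher ones TAF12 and SUPT3H probe 2. With the adjusted p, 1 was lower, TAF5 probe 1, and 1 higher, TAF12, beside 4.86% and 10.5%.

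**Figure D4:**
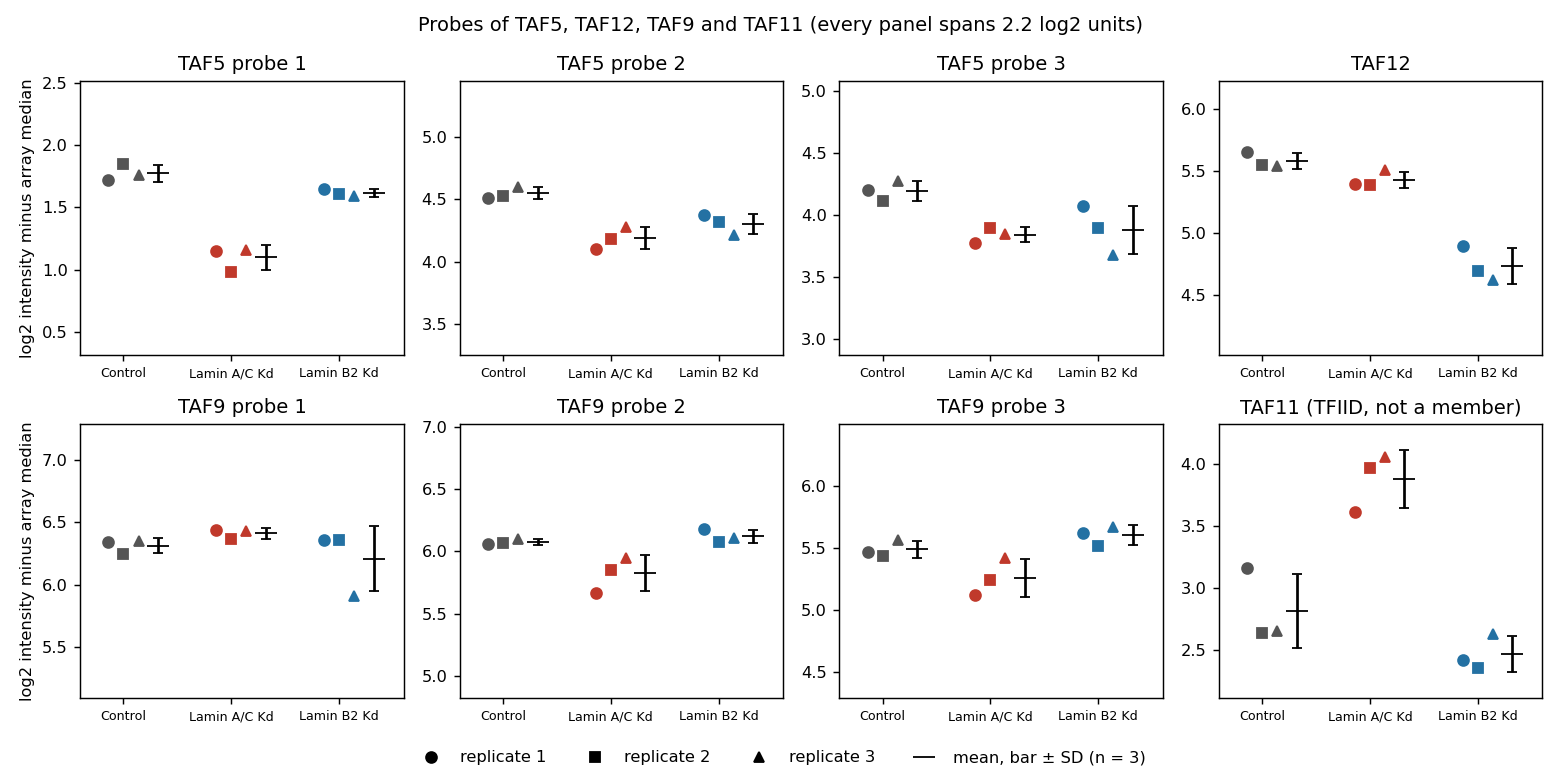
Log2 intensity minus the array median (y axis, 2.2 units in every panel) of the probes of TAF5, TAF12, TAF9 and TAF11 in each group (x axis), a marker per replicate and a bar for the mean ± SD (n = 3). TAF5 probe 1 is lowest in Lamin A/C Kd at 1.10, TAF12 is lowest in Lamin B2 Kd at 4.73, and TAF11 is highest in Lamin A/C Kd at 3.88.

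In a wider set, 82 genes of SAGA, ATAC, TIP60, TFIID, the SL1 factor of RNA polymerase I and the general factors of RNA polymerase II were tested, partners included and TAF5L left out. Of their 125 probes in Lamin A/C Kd, 3 were called at 2-fold, 1 higher and 2 lower, beside 2.31% of all probes tested. By the adjusted p, 8 were lower and 1 higher, beside 6.01% and 2.94%. Both lower counts include a GTF2A1 probe that was tested only because of its control values, as described below. Of 126 probes in Lamin B2 Kd, 0 were called at 2-fold in limma's test, beside 1.98% of all probes, and 3 were lower and 0 higher by the adjusted p, beside 3.62% and 0.462%. The median difference was -0.13 and -0.24. Among the 14 probes of the SAGA core, the median was -0.11 and -0.24, with 0 called at 2-fold in either knockdown and 1, TAF12, lower by the adjusted p in Lamin B2 Kd. The 11 probes of the deubiquitinase module had medians of 0.08 and -0.24, and 0 passed either criterion. The 8 probes of the acetyltransferase module had medians of -0.18 and -0.42, with 1 lower by the adjusted p in Lamin A/C Kd. Among 30 probes of 17 TFIID genes the median was -0.18 and -0.11.

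TAF11, the histone-fold partner of TAF13 in TFIID, was the only probe of these lists called higher, and only in Lamin A/C Kd. Its probe read 3.16, 2.64 and 2.65 in controls, 3.61, 3.97 and 4.05 with Lamin A/C Kd and 2.42, 2.36 and 2.63 with Lamin B2 Kd. Every Lamin A/C Kd array was above every other array. TAF11 rose by 1.06 ± 0.18 (SE; adjusted p = 0.0099) with Lamin A/C Kd, and the Lamin B2 Kd difference was -0.35 ± 0.18 (adjusted p = 0.27). Lamin A/C Kd exceeded Lamin B2 Kd by 1.41 ± 0.18 (adjusted p = 0.0018). Since TAF11 was named for its call on these same Lamin A/C Kd arrays, this comparison is not independent of that choice. The 2-fold call ended with normexp (0.86) and without control replicate 2 (0.97), control replicate 3 (0.98, adjusted p = 0.053) or Lamin A/C Kd replicate 3 (0.97).

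The 2 probes called lower belonged, with Lamin A/C Kd, to MNAT1, a subunit of the kinase module of TFIIH, and GTF2A1, the large subunit of TFIIA. MNAT1 read 5.65, 5.56 and 5.68 in controls and 4.37, 4.54 and 4.65 in Lamin A/C Kd, and fell by 1.10 ± 0.11 (SE; adjusted p = 0.0014). With quantile normalization the difference was -0.99, just under 2-fold. With Lamin B2 Kd it differed by -0.27 ± 0.11 (adjusted p = 0.19). GTF2A1 was called on 1 of 3 probes. That probe read 0.34, -1.09 and -0.92 in controls and -2.72, -1.82 and -1.68 in Lamin A/C Kd, where 1 of the 3 arrays was well above background. It was thus tested because of its control values, and its difference of -1.52 was taken against knockdown values that were mostly not well above background. With normexp the difference was -0.45, and the adjusted p was under 0.05 in 4 of 16 alternatives. A brighter probe of GTF2A1 differed by -0.27 ± 0.15 (adjusted p = 0.33).

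**Figure D5:**
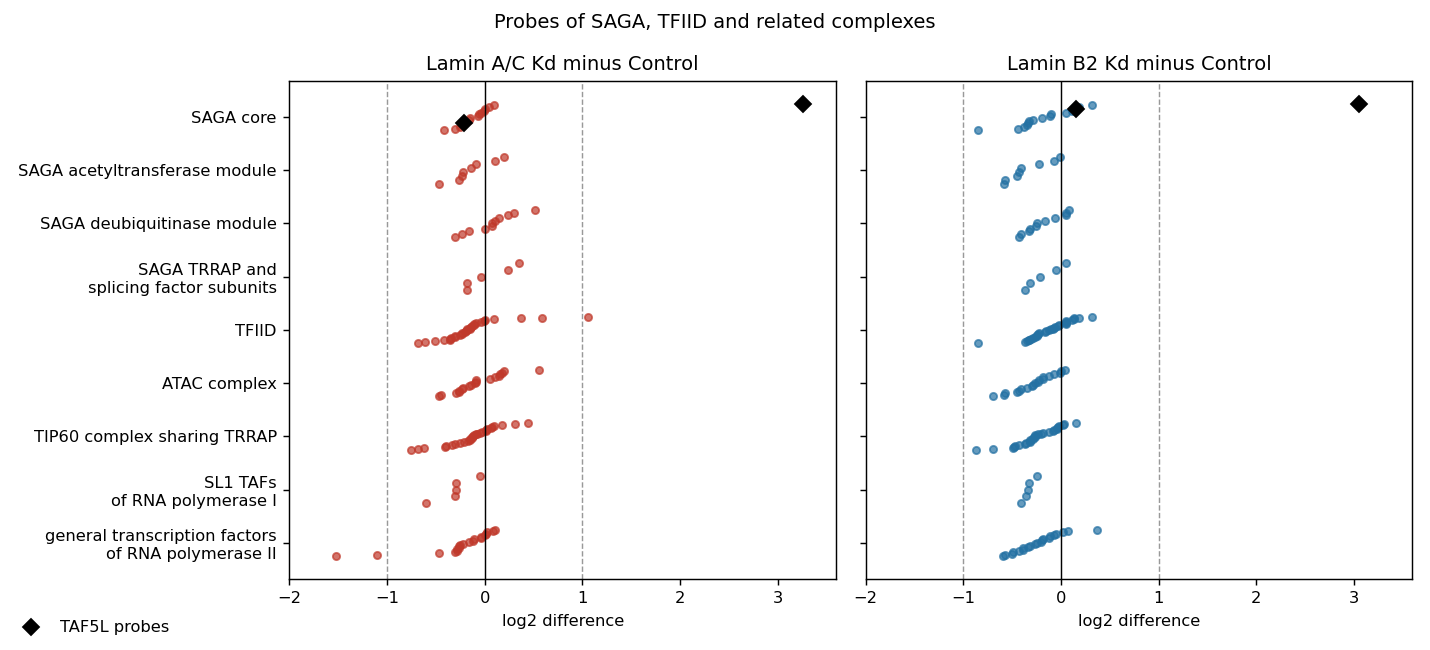
Log2 difference from untreated control (x axis) of every tested probe of SAGA, TFIID and related complexes, a row per list, left for Lamin A/C Kd and right for Lamin B2 Kd. Dashed lines mark 2-fold and black diamonds the TAF5L probes: probe 1 stands at 3.26 and 3.05, and the other probe lies among the rest at -0.21 and 0.15.

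The genes next to TAF5L on chromosome 1 were examined for the same rise. In the order of GRCh38.p14, the nearest genes with a probe were ABCB10, NUP133 and ACTA1 on one side and URB2, GALNT2 and PGBD5 on the other. PGBD5 was well above background on 0 arrays. The 8 probes of the other 5 genes differed from control by -0.58 to -0.19 with Lamin A/C Kd and by -0.34 to 0.07 with Lamin B2 Kd. URB2, the adjacent gene, differed by -0.32 and -0.23. Of the 8 probes, 1 of the 4 for ABCB10 passed the adjusted p with Lamin A/C Kd (-0.58, adjusted p = 0.030), beside 6.01% of all probes, and 0 were higher in either knockdown by limma's adjusted p, beside 2.94% and 0.462%.

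The array-wide patterns most like that of TAF5L probe 1 came from other gene names. Over the 9 arrays, among 13031 probes with a range of at least 1 log2 unit, the highest Pearson r belonged to LOC647615 (0.98), CRYBA2 (0.98), LOC727768 (0.98), OR2A2 (0.98) and LOC57400 (0.97). LOC647615 had a mean level of 5.01 in controls, 7.34 with Lamin A/C Kd and 7.11 with Lamin B2 Kd, and the others had their lowest mean in controls too. The control arrays formed a cluster apart from the knockdown arrays on TAF5L probe 1, so these r values mainly describe that gap. They share arrays and controls and are given as a description. The partner probes had r between -0.85, for TAF5 probe 2, and 0.11, for TAF9 probe 1, and TAF5L probe 2 had -0.18.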

How the data were processed

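Per the file headers, the authors scanned each array with Agilent Feature Extraction 10.7.3.1 (the submitters' notes name 10.5) and deposited 1 scanner file per array. The main values were the deposited processed intensities, which are background-subtracted and corrected for spatial trends by that software. The deposited files also hold flags for spots well above background, saturated or outliers (a score of 0 or 1). A deposited table of log2 values, shifted by the 50th percentile, served as an alternative. It has values in 29972 of 50238 rows, and the 10 members have 10 rows, each joining the probes of a gene. The Lamin B2 Kd set numbers in it differ from the titles, so those columns were used by group only.

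Intensities were log2-transformed, the 50th percentile of each array was subtracted, and the spots of each probe were averaged without outliers. Probes were tested where at least 0.5 of their spots were well above background on all 3 arrays of 1 of the groups compared. The model was fitted over all 9 arrays with lmFit and eBayes of limma 3.58.1 in R 4.3.3, and p-values were adjusted by Benjamini-Hochberg over all probes tested. Calls needed a 2-fold change and an unadjusted p under 0.05, as in the study's methods, which do not name the test. Array number, 3 per group, limits the precision. The replicates were independent biological replicates according to the methods. The steps were tested on simulated data.

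Named genes were the 10 members with every probe, other genes of the complexes with a called probe, the 5 names most like TAF5L probe 1, the 3 nearest genes with a probe on each side, LMNA and LMNB2. The cell type markers came from a separate list. HOXB8, AK098270, GFM1, AK129982, PSMB1 and HsapiAL137373 lie outside this rule and were named after their values or sequences were seen. List genes that passed the adjusted p alone were only counted. Members and lists were chosen with earlier results of these data known. Of 17 member probes, 16 had a transcript in the RefSeq table of GRCh38.p14. Alternatives were normexp with an offset of 50, quantile normalization, the 75th percentile as the shift, the authors' table, other detection filters, blocks for the set number and the slide, a fit on 2 groups, the adjusted p alone, 1.5-fold, and leaving out each array. One of the markers of other cell types is not reported here.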

Additional observations from a re-analysis of the deposited data

Results flagged for a closer look

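The knockdowns differed from each other on 4 of the probes described, by limma's test of Lamin A/C Kd minus Lamin B2 Kd with the p adjusted over all probes. Of all 33134 probes tested, 4.86% were lower and 10.5% higher by the same adjusted p, so such differences were common. On TAF5 probe 1 the difference was -0.52 (adjusted p = 0.012), with all 3 Lamin A/C Kd arrays below all 3 Lamin B2 Kd arrays. On TAF12 it was 0.69 (adjusted p = 0.0052), with all Lamin A/C Kd arrays above. On TAF11 it was 1.41 (adjusted p = 0.0018), and on MNAT1 it was -0.83 (adjusted p = 0.0022). Both genes were named for a call on the same Lamin A/C Kd arrays, so their p-values here are not independent of that choice. TAF11 and MNAT1 are subunits of TFIID and TFIIH and no members of the set of 10.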

How the results depend on the processing

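The count of 0 partner probes called in each comparison held under the other scalings, filters, blocks and fits and in the authors' table, and stayed at 0 with each array left out. It became 1 in Lamin A/C Kd, 1 in Lamin B2 Kd and 2 between the knockdowns with the adjusted p alone, and 1 in each at 1.5-fold. The TAF5L probe 1 difference moved to 2.28 and 2.19 with normexp, and to 2.32 and 2.21 in the authors' table. With single arrays left out it ran from 3.06 to 3.44 in Lamin A/C Kd and from 2.53 to 3.35 in Lamin B2 Kd. With the set number as a replicate block the counts stayed at 0 and the differences at 3.26 and 3.05. Of 9 same-numbered pairs of arrays, 1 had deviations correlated above 0.1, so the numbers were not taken as pairs. Differences that did not pass the test changed sign as follows, and the cause was not tested. For Lamin A/C Kd, SUPT3H probe 1 was 0.066 with the 75th percentile and 9.5e-05 with normexp, and ran from -0.089 to 0.097 with single arrays left out. SUPT3H probe 2 was 0.033 with the 75th percentile and ran from -0.10 to 0.039. TAF9 probe 1 was -0.11 in the authors' table, and TADA3L probe 1 was 0.033 with quantile normalization. For Lamin B2 Kd, TAF5 probe 1 was 0.036 with the 75th percentile. TAF9 probe 1 was 0.093 with it, 0.12 with quantile normalization, 0.046 with the slide as a block and 0.017 in the authors' table, and ran from -0.18 to 0.046, the latter without Lamin B2 Kd replicate 3. In Lamin A/C Kd, TAF5 probes 2 and 3 passed the adjusted threshold under 5 of 18 alternatives each, among them normexp. In Lamin B2 Kd they passed it under 0 of 18. The slide block removes Lamin B2 Kd replicate 3, since that slide holds no other array. It is thus nearly the same setting as leaving that replicate out. The counts of alternatives include both, so they are not counts of independent settings.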
